A study of Mus musculus with 7 samples.

Results

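The limb genes for fibroblast growth factors (FGFs) and their receptors were examined for occupancy by HDAC1, a histone deacetylase that removes acetyl groups from histone tails and is brought to DNA by partner proteins. The 8 genes were the ligands Fgf4, Fgf8, Fgf9 and Fgf17 of the apical ectodermal ridge, the mesenchymal ligand Fgf10, and the receptors Fgfr1, Fgfr2 and Fgfr3. A peak was assigned to a gene when it overlapped the gene body widened by 20 kb on each side, and 45 of the 15347 HDAC1 peaks met that rule. HDAC1 was immunoprecipitated from wild-type Swiss Webster mouse limb buds at E11.5 (40 to 44 somites), with fore- and hindlimb buds combined from 3 litters per sample. There were 4 ChIP samples and 3 inputs, which are chromatin sequenced without an antibody. The peak list used here is 1 for all samples and gives the position of each peak. It holds no height, read count or value for any sample, so depth and peak strength were not analysed here, the values below carry no error and no test between replicates could be made from it. The list order is used as the rank, with 1 the first.

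Ridge FGFs leave the ectoderm at the distal rim of the limb bud and keep the underlying mesenchyme growing, while Fgf10 is made by that mesenchyme and signals back to the ectoderm, so that the ligands form a loop between the tissue layers. Both kinds of signal are read by receptor tyrosine kinases that pair on binding ligand, with heparan sulfate as a cofactor, and pass the signal to adaptor proteins inside the cell. Whole limb buds were used, so a peak shows occupancy somewhere in the tissue and cannot be placed in the ridge, the other ectoderm or the mesenchyme, nor does it give the level of a transcript.

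RefSeq promoter sequences (GRCm38.p6) were matched for 5 of the 8 genes, Fgf4, Fgf9, Fgf10, Fgfr2 and Fgfr3. Fgf8, Fgf17 and Fgfr1 had no match. The 250 bases before the RefSeq start site are printed to show how unlike these stretches are in CpG. In the whole list a promoter peak went with CpG content around the main start site (given further on). Capitals mark each CG, and each sequence runs 5′ to 3′ on the strand of its gene. The Fgf4 sequence is chr7:144861136-144861385 on the plus strand, Fgf9 is chr14:58072436-58072685 on the plus strand, Fgf10 is chr13:118714449-118714698 on the plus strand, Fgfr2 is chr7:130266809-130267058 on the minus strand and Fgfr3 is chr5:33721474-33721723 on the plus strand.
Fgf4: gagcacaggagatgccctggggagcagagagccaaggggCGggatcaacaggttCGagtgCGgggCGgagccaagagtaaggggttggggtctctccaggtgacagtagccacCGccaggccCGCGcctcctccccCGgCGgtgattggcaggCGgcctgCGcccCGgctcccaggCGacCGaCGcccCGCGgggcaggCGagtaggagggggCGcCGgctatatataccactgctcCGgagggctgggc
Fgf9: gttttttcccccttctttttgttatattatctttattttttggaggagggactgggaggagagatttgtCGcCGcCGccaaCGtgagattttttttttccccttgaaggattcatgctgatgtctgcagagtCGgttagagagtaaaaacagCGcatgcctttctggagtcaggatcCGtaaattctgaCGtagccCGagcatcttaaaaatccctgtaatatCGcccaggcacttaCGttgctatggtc
Fgf10: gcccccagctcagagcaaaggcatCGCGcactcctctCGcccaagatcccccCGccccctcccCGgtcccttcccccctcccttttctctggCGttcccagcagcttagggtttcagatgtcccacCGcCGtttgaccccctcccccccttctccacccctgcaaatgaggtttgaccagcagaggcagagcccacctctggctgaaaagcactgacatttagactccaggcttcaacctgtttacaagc
Fgfr2: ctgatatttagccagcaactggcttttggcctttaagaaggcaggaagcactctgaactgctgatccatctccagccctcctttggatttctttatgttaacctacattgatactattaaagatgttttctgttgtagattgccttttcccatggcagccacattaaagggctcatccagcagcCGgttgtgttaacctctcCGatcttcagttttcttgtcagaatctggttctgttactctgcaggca
Fgfr3: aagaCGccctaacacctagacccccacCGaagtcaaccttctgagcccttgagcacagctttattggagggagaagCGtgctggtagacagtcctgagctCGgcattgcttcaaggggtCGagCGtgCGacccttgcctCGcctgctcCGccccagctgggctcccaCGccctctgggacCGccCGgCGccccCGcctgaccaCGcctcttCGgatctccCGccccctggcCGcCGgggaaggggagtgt

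The stretch before Fgf4 held 21 CG and overlapped no peak. That before Fgfr3 held 19, with 224 of its bases in a peak. The stretches before Fgf9 and Fgf10 held 11 and 8 CG and lay wholly inside a peak. The Fgfr2 stretch held 2 CG and lay outside the Fgfr2 peak, which covered later start sites inside the RefSeq gene. It does not stand for the main Fgfr2 promoter. The 1 kb around that start site had 66.2% G and C and a ratio of observed to expected CpG of 0.93. Over the 32851 promoters of the table the median was 6 CG in this stretch. A second RefSeq entry of Fgfr3, at a start site farther downstream, held 24 CG with 200 of its 250 bases in a peak, and is not printed.

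A set of 4 short motifs were counted on both strands of the 300-base RefSeq promoters, which also hold 50 bases after the start. GGGCGG, the GC box, occurred 4 times at the Fgfr3 promoter printed above, 2 times at its second entry, 2 times at Fgf4 and 1 time at Fgf10, and was in 35.7% of all promoters. CCAAT occurred 1 time each at Fgf4 and the printed Fgfr3 promoter and was in 37.4%. TATAAA, in 13.6%, and GACCACCCA, a core of the sites bound by the GLI factors of Hedgehog signalling and in 0.253%, were not among the letters of these windows. The promoters of Fgf9 and Fgfr2 held none of the 4 motifs. A match is a description of letters and not a bound site.

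Under the rule as given, all 8 genes had a peak in the window, against 59.3% of 21951 protein-coding genes. The 4 ridge ligands had 10 peaks, Fgf10 had 2 and the 3 receptors had 33. This count was set largely by the annotation of 1 gene. GENCODE gives Fgfr2 a length of 2960900 bp because of 1 distal transcript model that starts far upstream, at the promoter of Ctbp2, the gene of a transcriptional corepressor, whereas the RefSeq gene is 104358 bp long. Of the 28 Fgfr2 peaks, 25 lay outside the RefSeq gene widened by 20 kb, and 20 of those were at a promoter of another protein-coding gene. With RefSeq gene bodies the count was 19 peaks in 7 genes, with 9 for the ridge ligands, 2 for Fgf10 and 8 for the receptors. The order of receptors over ridge ligands in number of peaks therefore turned with the annotation. Of these 19 peaks, 12 were at a promoter of the gene itself, 3 were within its introns and 4 lay at or in neighbouring genes. All 4 were in the windows of the ridge ligands Fgf8 and Fgf17. In the RefSeq bodies alone the ridge ligands had 5 peaks and the receptors 7.

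The share of genes with a peak in the window also rose with gene length. Of protein-coding genes of 5 to 20 kb, the class of Fgf4, Fgf8, Fgf17 and Fgfr3 in GENCODE, 55.1% had a peak in the window, against 72.5% of those of 50 to 150 kb, the class of Fgf10 and Fgfr1. The promoter, taken as 2 kb before to 1 kb after a protein-coding start site, is less open to this. A promoter peak was present at 6 of the 8 genes, Fgf8, Fgf9, Fgf10, Fgfr1, Fgfr2 and Fgfr3, against 44.0% of 21864 genes, and absent at Fgf4 and Fgf17. The 44.0% is not matched for CpG content, in which the 8 genes differ from all genes (given further on). By role, it was present at 2 of 4 ridge ligands, at Fgf10 and at 3 of 3 receptors.

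**Figure D1:**
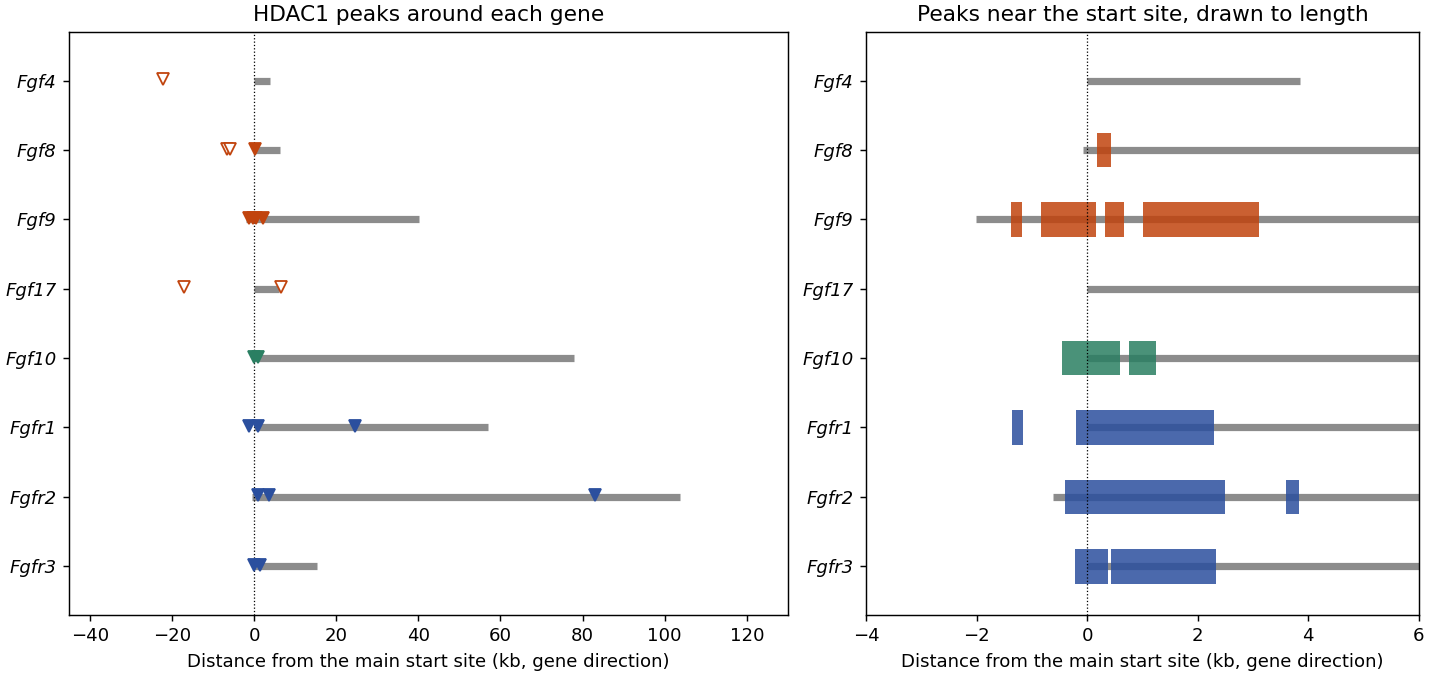
HDAC1 peaks by distance from the main start site of each gene in kb, in the direction of transcription, with the RefSeq gene as a grey bar. On the left, filled triangles are peaks at an own promoter or inside the RefSeq gene and open triangles are other peaks, and the distant Fgfr2 peaks are outside the range; on the right, boxes are peaks drawn to their length. Fgf4 and Fgf17 have no box, Fgf8 has 1 box of 250 bp, and Fgf9, Fgf10 and the receptors have long boxes at or just after the start site.

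Fgf8 is the ridge ligand made along the whole ridge and is needed for limb outgrowth. Its only own peak, chr19:45742450-45742699, was 250 bp long, ranked 13856 and lay 175 to 424 bp after the main start site, over coding and untranslated exon sequence. This is a short and late entry of the list, since 13.6% of all peaks were shorter and 9.72% ranked lower. A pair of further peaks in the window, of 500 bp (rank 5761) and 250 bp (rank 9823), lay at the promoter of the neighbouring gene Npm3, a nucleoplasmin family histone chaperone. Both lay before the Fgf8 start site and ranked above the Fgf8 peak.

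Fgf4, made in the posterior and distal ridge, had no peak in its RefSeq gene or within 20 kb of it. Its 1 peak under the rule, chr7:144838200-144840049, was 1850 bp long with rank 2795 and ended 21337 bp before the main start site, at the promoter of the neighbouring ligand gene Fgf3. It entered because the GENCODE gene is 17877 bp long, against 3860 bp in RefSeq. The Fgf3 promoter was thus covered and the Fgf4 promoter was not.

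Fgf9 differed from the other ridge ligands by having 4 own peaks, which together covered 3650 bp. The longest, chr14:58073700-58075799, was 2100 bp with rank 4572 and ran from 1014 to 3113 bp after the main start site, over a further start site and untranslated exon sequence. A peak of 1000 bp (rank 7629) reached from 836 bp before to 163 bp after the main start site. Between and before them lay peaks of 350 bp (rank 13380), over coding and untranslated exon sequence, and 200 bp (rank 13074), which began 1386 bp before the start. All 4 ranked below the first 3836 peaks of the list. No peak lay in the rest of this gene of 42184 bp.

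Fgf17, a close relative of Fgf8 in the posterior ridge, had no own peak. The peaks in its window belonged by position to neighbours. One of 400 bp (rank 6544), 6269 bp past the Fgf17 start site and beyond its 3′ end, was at the promoter of Dmtn, which encodes an actin-binding protein. The other of 800 bp (rank 3832) was in the overlapping bodies of Npm2, an oocyte histone chaperone, and Xpo7, a nuclear export receptor, 16582 bp before the start site.

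Fgf10 is the mesenchymal signal without which limb buds do not form. It had 2 peaks, 1550 bp in all. The first, chr13:118714250-118715299, was 1050 bp long with rank 11158 and spanned the start site from 449 bp before to 600 bp after it. The second, chr13:118715450-118715949, was 500 bp long with rank 5999 and lay 751 to 1250 bp after the start, over coding exon sequence. The antisense gene Gm16263 overlaps the first peak, and a peak has no strand. The longer peak, over the start site, was thus the later in the list. Neither was among the first 3836 peaks, and no other peak lay within 200 kb of the RefSeq gene. The nearest was 327400 bp away, at Mrps30, a mitochondrial ribosomal protein gene.

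Fgfr1 is a receptor of the limb mesenchyme. Its main peak, chr8:25518550-25521049, was 2500 bp long and ranked 44, higher than 99.7% of all peaks and the highest of the 45. It began 209 bp before the start site and ended 2290 bp after it, over untranslated exon and intron. A peak of 850 bp (rank 5055) lay in an intron, 24191 to 25040 bp after the start site. A further peak of 200 bp (rank 13609) lay 1160 bp before the start site and held 1 CG.

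Fgfr2, whose epithelial form binds Fgf10, had 3 peaks in the RefSeq gene. The longest, chr7:130263700-130266599, was 2900 bp with rank 1022 and spanned the main start site from 408 bp before to 2491 bp after it. It was longer than 99.0% of all peaks. The other two were in introns and are printed here, with CG in capitals on the plus strand of GRCm38, as examples of short, late peaks away from a start site. That of 250 bp at chr7:130262350-130262599 had rank 14704 and that of 150 bp at chr7:130183000-130183149 had rank 13846. Beside them stands the 200-bp peak at chr14:58071300-58071499 before the main Fgf9 start site, with rank 13074.
Fgfr2 intron, near the start: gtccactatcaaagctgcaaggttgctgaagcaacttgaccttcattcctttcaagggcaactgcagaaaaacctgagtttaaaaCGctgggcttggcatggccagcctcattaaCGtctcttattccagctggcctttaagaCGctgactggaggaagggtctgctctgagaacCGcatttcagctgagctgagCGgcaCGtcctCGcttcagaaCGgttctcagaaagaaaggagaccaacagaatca
Fgfr2 intron, far from the start: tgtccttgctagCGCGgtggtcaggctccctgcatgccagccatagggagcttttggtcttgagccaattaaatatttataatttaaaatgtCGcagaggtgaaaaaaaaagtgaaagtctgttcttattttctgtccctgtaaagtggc
Fgf9, before the start: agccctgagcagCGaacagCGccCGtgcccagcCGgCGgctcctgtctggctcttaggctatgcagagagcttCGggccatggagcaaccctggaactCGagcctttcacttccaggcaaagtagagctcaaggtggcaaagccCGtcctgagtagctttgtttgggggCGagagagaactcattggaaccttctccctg

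The Fgfr2 intron sequences held 8 and 3 CG, with 50% and 42.7% G and C, and the Fgf9 sequence held 9 with 59.5%. The median over all 15347 peaks was 62.9% G and C. Over the 4590 peaks away from protein-coding promoters it was 52.5%, with 2.28 CG per 100 bp. The Fgfr2 intron peaks held 3.2 and 2 CG per 100 bp. The Fgf9 peak held 4.5, against a median of 8.57 over peaks at protein-coding promoters. The long Fgfr2 peak held 182 CG, or 6.28 per 100 bp, with 60.0% G and C.

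Fgfr3, best known as a brake on cartilage growth, had 2 peaks close together at its start. The first, chr5:33721500-33722099, was 600 bp with rank 1395 and ran from 224 bp before to 375 bp after the start site. The second, chr5:33722150-33724049, was 1900 bp with rank 5509 and ended 2325 bp after the start site, over coding and untranslated exon sequence. An unclassified gene on the other strand, G630022F23Rik, overlaps both. As at Fgf10, the shorter of the pair came earlier in the list, while in the list as a whole the median length fell from 1050 bp among the first 3836 peaks to 250 bp among the last 3836.

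**Figure D2:**
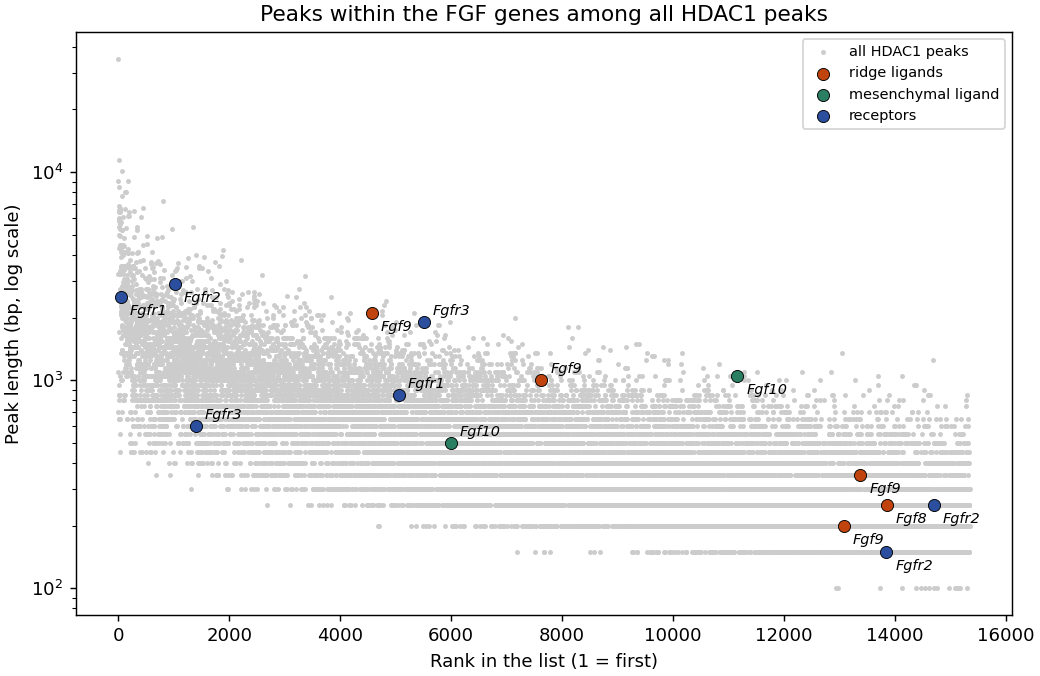
Length in bp (log scale) against rank for all 15347 HDAC1 peaks (grey) and the 14 peaks that overlap the RefSeq body of 1 of the FGF genes (coloured by role). Fgfr1 (rank 44), Fgfr2 (1022) and Fgfr3 (1395) lead, the first ridge ligand peak is Fgf9 at 4572, and the Fgf8 peak is among the late and short ones.

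Within the RefSeq bodies the receptors held 7 peaks over 9150 bp, the ridge ligands 5 over 3900 bp and Fgf10 2 over 1550 bp. The ridge total was Fgf9 but for 250 bp. These totals are not scaled to gene length. The RefSeq genes were 15345 to 104358 bp long for the receptors, 3860 to 42184 bp for the ridge ligands and 77875 bp for Fgf10. Every receptor had a promoter peak of better rank than any own peak of a ligand. Among the first 3836 peaks, a promoter peak was left at 3 genes, the receptors alone, against 16.9% of all protein-coding genes. Among the first 7673 it was left at 5, with Fgf8 lost, against 30.0%. These shares are over all genes and were not computed for CpG-rich genes, the class of all 3 receptors (given further on). These are orders within 1 list and have no replicate error.

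The main start site was taken from the transcript with the best APPRIS level. It lay inside a peak at 5 genes, Fgf9, Fgf10 and the receptors, against 28.5% of all genes, not matched for CpG content. At 4 of these 5 the peak reached farther downstream than upstream, as it did at 77.0% of the start sites inside a peak, and Fgf9 was the exception. The downstream reach of 2290 bp at Fgfr1 and 2491 bp at Fgfr2 compares with a median of 519 bp. At least 2 promoter peaks were found at 5 of the 8 genes, against 9.41% of genes. Without the peak at the distal Fgfr2 start the number was 4, which were Fgf9, Fgf10, Fgfr1 and Fgfr3. These numbers rest on how adjacent calls were split. Merging peaks no more than 1000 bp apart left 1 peak each in the windows of Fgf9, Fgf10 and Fgfr3. It left 2 in that of Fgfr1, of which 1 was the intron peak. The share of all genes after merging was not computed.

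Over all genes a promoter peak went with CpG content. Promoters were called CpG-rich when the 1 kb around the main start site had over 50% G and C and a ratio of observed to expected CpG above 0.6. A promoter peak was present at 80.4% of CpG-rich genes and 13.1% of the others. Of the 8 FGF genes 6, all but Fgf10 and Fgf17, were CpG-rich, against 46.0% of all genes. Of these 6, all but Fgf4 had a promoter peak, to be read beside the 80.4% of CpG-rich genes. Fgf4 was CpG-rich, with 67.5% G and C and a ratio of 0.77, and had no peak. Fgf8, with 72.9% and 0.79, had the least covered promoter of the genes with a peak, 250 bp, which was more than at 5.61% of 9262 covered promoters. Fgf10, with 59.4% and 0.53, was not CpG-rich and had 1300 bp covered, more than at 85.6% of them. Fgf17 was not CpG-rich, with a ratio of 0.40, and had none. Fgf9 had the highest ratio, 0.97, and 1550 bp covered, and the receptors had ratios of 0.70 to 0.93 and 1175 to 1410 bp covered.

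**Figure D3:**
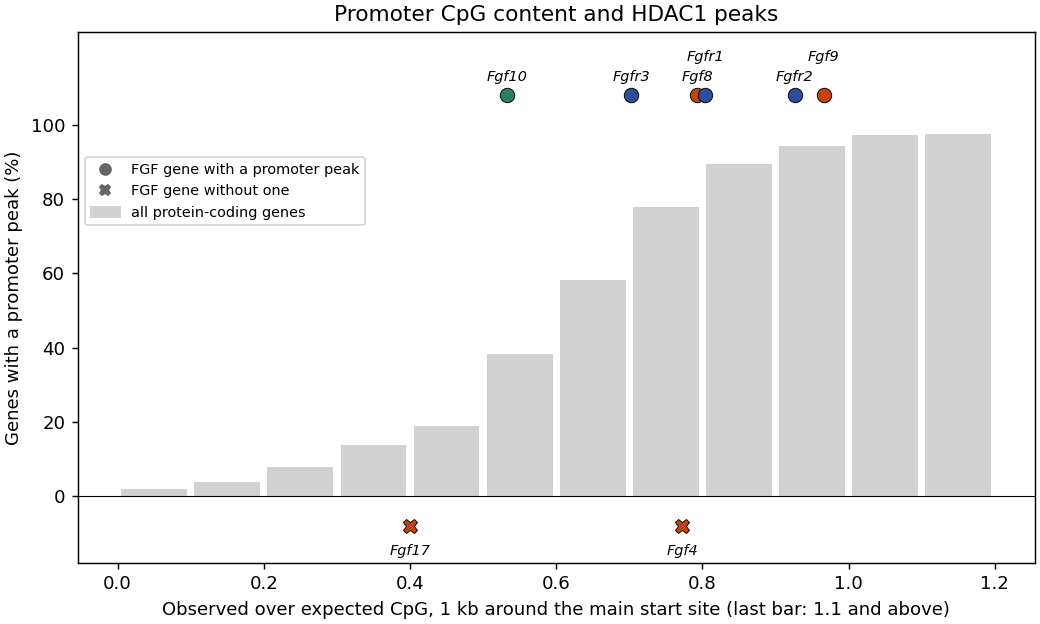
Share of protein-coding genes with a promoter HDAC1 peak (grey bars, %) by the ratio of observed to expected CpG in the 1 kb around the main start site, with the FGF genes that have a promoter peak placed above the bars and those without one below. Fgf4, at 0.77, lies in a bin where 77.8% of genes had a peak, and Fgf10, at 0.53, in one where 38.3% did.

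Of 37 other genes of the pathway, 28 had a peak in the GENCODE window and 23 at a promoter, to be read against the same 59.3% and 44.0%. The shares differed by role. The CpG class of these 37 genes was not determined, while a promoter peak was present at 80.4% of CpG-rich genes and 13.1% of the others. The roles were thus not compared at equal CpG content. Among 17 other Fgf family genes, of which Fgf11 to Fgf14 do not encode secreted ligands, 6 had a promoter peak. These were Fgf2, Fgf3, Fgf11, Fgf12, Fgf13 and Fgf18. Fgf3, at the locus next to Fgf4, had 1850 bp with rank 2795. Fgf2, a broadly acting ligand, had 500 bp at its promoter with rank 4497, and Fgf18, a ligand of skeletal growth, had 3 promoter peaks over 1300 bp. The best rank in the Fgf18 window was 357, at a peak away from its promoters, where the best rank was 5083. Fgf22 had none at a promoter, although a peak of 1150 bp lay in its window. In the window itself 7 of the 17 had none, among them Fgf1, Fgf14, Fgf16 and Fgf20.

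Among 4 other receptors and co-receptors, the decoy-like receptor Fgfrl1 had a promoter peak of 1250 bp with rank 2170, and Kl, a co-receptor for hormone-like FGFs, had 200 bp with rank 10994. Klb, the related co-receptor, had 4 peaks in the window and none at a promoter, and Fgfr4 had none in the window. All 7 adaptors had a promoter peak, with 2050 bp at Gab1 (rank 2248), a docking protein, 2000 bp over 3 peaks at Shc1, 1150 bp at Sos1 (rank 430), the exchange factor for RAS, and 1050 bp over 2 peaks at Grb2, which links Sos1 to docking proteins. Of 9 heparan sulfate and membrane partners 8 had one. Sdc1, a heparan sulfate proteoglycan, had 2450 bp with rank 82, Gpc3 had 3000 bp over 2 peaks, Ext1, an enzyme that builds heparan sulfate chains, had 1800 bp with rank 1812, and Gpc1 had 1750 bp with rank 766. Fgfbp3 had 1200 bp with rank 351. Fgfbp1, a secreted FGF carrier, had none in the window.

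**Figure D4:**
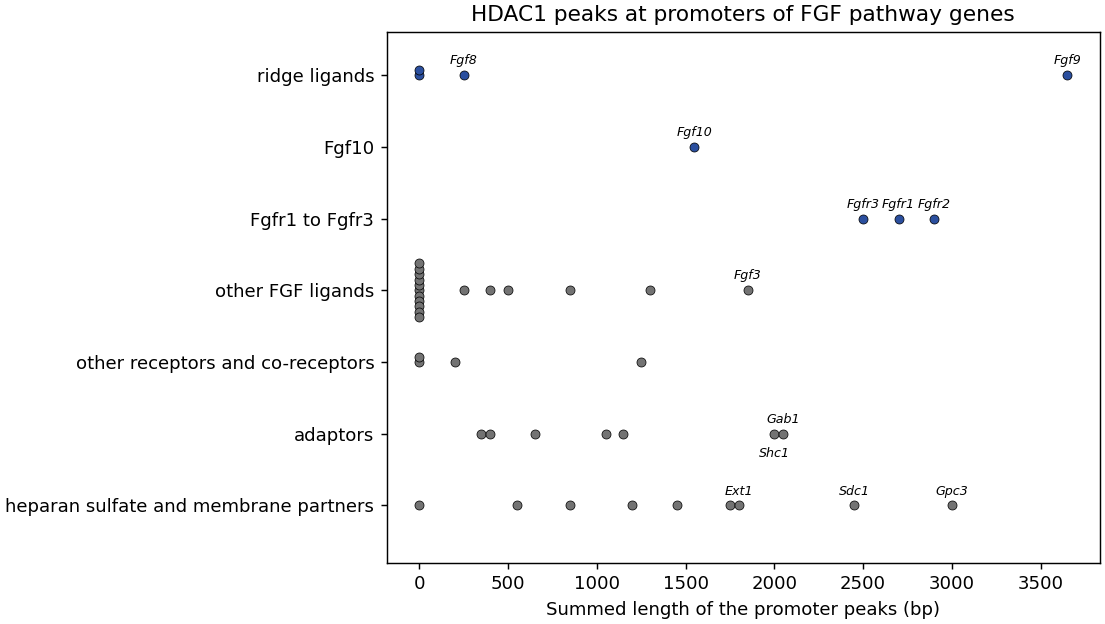
Summed length in bp of the HDAC1 promoter peaks of each gene, 1 point a gene, for the 8 FGF ligands and receptors (blue, without the peak at the distal Fgfr2 start) and 37 other pathway genes (grey) by role. The receptors lie at 2500 to 2900 bp and Fgf9 at 3650 bp. The row named other FGF ligands holds 17 further Fgf family genes, all below these values, and 11 of them lie at 0.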

How the data were processed

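HDAC1 ChIP-seq was made from limb buds in 4 ChIP samples with 3 inputs, grouped by their labels. The authors aligned reads to mm10 (Bowtie2 2.2.5 per the submitters' processing notes), and used CisGenome for peak calling (FDR under 0.05). The deposited file used here is 1 list of chromosome, start and end. These values are coordinates, in no unit of signal or counts, all of them in steps of 50 bp. The list holds no depth, height or value of a single sample, and no fold change or FDR of a single peak was used here, so no precision is attached to a peak. The study describes its HDAC1 peaks as ordered by rank. Absence of a peak means that none passed the threshold of the authors. Whether starts are counted from 0 or 1 is not stated, and they were read as 1-based with both ends included, so positions may be off by 1 bp.

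Genes were taken from GENCODE M21 (mm10) and from RefSeq, and overlap needed at least 1 bp. Promoters were 2 kb before to 1 kb after the start sites of protein-coding transcripts. The main start site was that of the transcript with the best APPRIS level and, among equals, the most upstream one. Base composition and sequences came from GRCm38.p6. The genes, gene lists and settings were chosen with earlier results of these data known, so shares are given as descriptions beside those of all protein-coding genes, with no test. Genes named were the 8 FGF genes and each gene whose promoter or body overlapped a peak in their RefSeq windows or the Fgf4 window. Ctbp2 was named at the distal Fgfr2 start, and Mrps30 after its value was seen. For each role of the pathway, up to 4 with the longest peaks and up to 4 without one in order of symbol were named. Fgfbp3 was added for its rank. Overlaps were tested on simulated intervals with known answers. Python 3.11.15, numpy 2.4.6, pandas 2.3.3, scipy 1.17.1 and matplotlib 3.10.9 were used. Alternatives were other window and promoter sizes, the first 7673 and first 3836 peaks, merged peaks, a 50% overlap and other gene bodies.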

Additional observations from a re-analysis of the deposited data

How the results depend on the processing

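No paired analysis was possible because the peaks are 1 list for all samples, and for the same reason no sample could be left out. Of 62 values for the numbers of genes and peaks by role, 43 stayed within 1.5 times. Part of this was fixed in advance by the long GENCODE Fgfr2 gene, which had 28 peaks with every window. The receptors had 33, 33, 38 and 44 peaks with windows of 0, 5, 50 and 100 kb. With windows of 0, 5 and 100 kb the ridge ligands had 5, 6 and 21 peaks in place of 10. The first 7673 peaks left 23 in all, with 6 in the windows of ridge ligands, 1 of Fgf10 and 16 of receptors. The first 3836 left 11 peaks in 5 genes, with 2 in windows of ridge ligands, 0 of Fgf10 and 9 of receptors. A promoter peak was then left at 3 genes, as follows from fewer peaks. Of all protein-coding genes 26.9% then had a peak in the window and 16.9% at a promoter. The 2 ridge ligand peaks lay at neighbours, at the Fgf3 promoter (rank 2795) and in Npm2 and Xpo7 (rank 3832). Of the 9 receptor peaks, only those of rank 44, 1022 and 1395 lay in a RefSeq receptor gene. The others were distant Fgfr2 peaks, and the 16 likewise include distant Fgfr2 peaks. Merging peaks no more than 1000 bp apart gave 6 at ridge ligands and 1 at Fgf10. RefSeq gene bodies gave 19 peaks in all and 8 at receptors, and leaving out only the distal Fgfr2 transcript gave 20 and 8. These last alternatives were chosen after seeing the data. The depth, not analysed here, limits each gene without a peak: weaker occupancy at Fgf4 or Fgf17 was not detectable in this list.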

Other observations

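The surroundings of the genes differed in how many peaks they held. No count over all genes was made for comparison. The counts were not scaled to gene length or to the number of nearby genes. Within 100 kb of the RefSeq gene, Fgfr3 had 10 peaks, Fgfr1 and Fgf17 had 6 each, Fgf4, Fgf8 and Fgf9 had 5 each, Fgfr2 had 3 and Fgf10 had 2. For Fgf10 and Fgfr2 these were the peaks already described. The nearest peak outside the widened gene lay 253042 bp from Fgfr2, at Ate1, an arginine transferase gene, 71272 bp from Fgf9, at Micu2, a regulator of mitochondrial calcium uptake, and 39659 bp from Fgf8, at Mgea5, the enzyme that removes O-GlcNAc from proteins. These neighbours were named after their values were seen.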
